A study of Mus musculus with 8 samples.

Results

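The endocannabinoid genes of the mouse retina were examined in adult wildtype (WT) mice and in quadruple knockout (KO) mice without functional Bcan, Ncan, Tnc and Tnr, which encode brevican, neurocan, tenascin-C and tenascin-R of the neural extracellular matrix. The set holds 8 of the 18058 genes of the expression table, namely Dagla, Daglb, Mgll, Abhd6, Abhd12, Napepld, Faah and Cnr1, and all 8 passed the filter on low values. They were chosen by gene name, around Abhd6, which had been selected on its higher normalized counts in the quadruple KO. The difference of Abhd6 between the genotypes is therefore given as a description without a test. The other 7 genes were taken for their role in the pathway, though earlier results of these data were known when they were chosen. Total RNA from 4 WT and 4 quadruple KO retina samples, with the letters A to D in either genotype, was sequenced. The WT mice came from the inbred background strain, the quadruple KO line was bred by combining single KO lines of the 4 genes, and adult animals of both sexes were used in the study. The methods state that retinae were pooled before RNA extraction but not how many entered a library. The p-values below measure only the spread between these libraries, which may be partly technical.

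Endocannabinoids are lipids that neurons make on demand and that mostly act backwards across a synapse. The diacylglycerol lipases DAGLα (Dagla) and DAGLβ (Daglb) make 2-arachidonoylglycerol, which monoacylglycerol lipase (Mgll), ABHD6 and ABHD12 hydrolyse. NAPE-PLD (Napepld) forms anandamide and related N-acylethanolamines, and fatty acid amide hydrolase (Faah) degrades them. The CB1 receptor (Cnr1), found in the retina on bipolar, horizontal, amacrine and ganglion cells, lowers transmitter release through inhibitory G proteins.

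The 5 genes of the 2-arachidonoylglycerol branch and the 3 others did not move as one group. Abhd6 and Abhd12 were higher and Mgll was lower in every quadruple KO library than in every WT library, while Dagla, Daglb, Napepld, Faah and Cnr1 overlapped between the genotypes. Among the 7 genes with a test, none passed the threshold over all genes (limma on log2 normalized counts, adjusted p from 0.30 to 0.71), and 1, Mgll, had an unadjusted p under 0.05. Over the 17636 genes tested 0.437% were called at an adjusted p under 0.05, 16.6% had an unadjusted p under 0.05, and 9.74% had genotypes that did not overlap. The median log2 difference was -0.17 for the 7 genes and 0.00 for all genes tested.

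The libraries were not alike within WT. The 13 mitochondrially encoded mRNAs took 0.402% (WT B) and 0.341% (WT C) of the summed normalized counts. In the other 6 libraries their share was 1.28% to 1.64%. The first principal component of all genes tested (50.9% of the variance) set the same pair apart, at 0.617 and 0.595. WT A (-0.095) and WT D (-0.164) lay between this pair and the quadruple KO libraries (-0.260 to -0.218). Reducing WT to A and D therefore does not remove this component from the comparison of the genotypes. Over all genes tested, 35.1% had WT B and WT C both above WT A and WT D, and 35.8% had both below. Of the 8 endocannabinoid genes, 5 lay above (Daglb, Mgll, Napepld, Faah and Cnr1), 1 below (Abhd6) and 2 were mixed. Rod markers (Gnat1, Pde6a, Nrl and Sag) were present in every library. Among the targeted genes, Ncan reached at most 0.853 normalized counts in the quadruple KO against 569 to 789 in WT. Bcan ran from 11.5 to 22.1 in the quadruple KO against 197 to 327 in WT. Tnr was also below the WT range but kept much of its level, at 2374 to 2580 against 5578 to 6317. Tnc overlapped between the genotypes. The paper reports a lost stretch of the Tnc sequence in the quadruple KO, and its western blots of postnatal retinae did not detect the Tnc protein there.

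Promoter sequences are shown for Abhd6, whose lowest levels were those of WT B and WT C and whose highest were those of the quadruple KO, and for Faah and Daglb, which had their highest levels in WT B and WT C. Each is the stretch of 250 bases directly before the most upstream annotated start, from RefSeq on GRCm38.p6, read 5′ to 3′ along the gene. The windows lie at chr14:8002638-8002887 on the plus strand for Abhd6, chr4:116017925-116018174 on the minus strand for Faah and chr5:143464243-143464492 on the plus strand for Daglb. Capitals mark the CCAAT box, the GC box letters GGGCGG, the TATA box letters TATAAA and the E-box letters CACGTG, each searched on both strands.

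Abhd6: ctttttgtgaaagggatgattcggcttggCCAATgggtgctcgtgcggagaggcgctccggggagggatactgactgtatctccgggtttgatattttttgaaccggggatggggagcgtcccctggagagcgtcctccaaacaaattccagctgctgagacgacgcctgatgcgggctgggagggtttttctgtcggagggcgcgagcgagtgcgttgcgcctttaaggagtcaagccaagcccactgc
Faah: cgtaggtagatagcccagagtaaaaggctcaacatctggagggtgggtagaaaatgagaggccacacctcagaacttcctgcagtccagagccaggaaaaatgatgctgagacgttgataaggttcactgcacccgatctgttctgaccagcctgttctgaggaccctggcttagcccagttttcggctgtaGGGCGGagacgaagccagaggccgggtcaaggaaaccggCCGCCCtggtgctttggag
Daglb: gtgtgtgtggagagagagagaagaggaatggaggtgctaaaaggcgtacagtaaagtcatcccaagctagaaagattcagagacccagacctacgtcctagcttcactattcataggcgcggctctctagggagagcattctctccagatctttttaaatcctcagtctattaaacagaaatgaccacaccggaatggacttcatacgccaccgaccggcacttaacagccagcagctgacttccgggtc

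The Abhd6 window holds 1 CCAAT, which begins 221 bases before the start, and 18 CpG dinucleotides. The Faah window holds 2 matches to GGGCGG, beginning 58 and 19 bases before the start, and 9 CpG dinucleotides. The Daglb window has no match to any of the 4 motifs and also holds 9 CpG dinucleotides. Of the 32851 windows in the RefSeq promoter table, 33.8% hold CCAAT, 32.7% hold GGGCGG, 12.4% hold TATAAA, and 6.02% hold CACGTG, with a median of 6 CpG dinucleotides, so each match is common. None of the 3 printed windows shares a motif with another. Windows of Mgll, Napepld and Cnr1, which also had their highest levels in WT B and WT C, were matched and are not printed. The Cnr1 window holds 5 matches to GGGCGG, the motif of the Faah window. The Mgll window holds 1 CACGTG, and the Napepld window has no match. Dagla and Abhd12 were not matched.

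**Figure D1:**
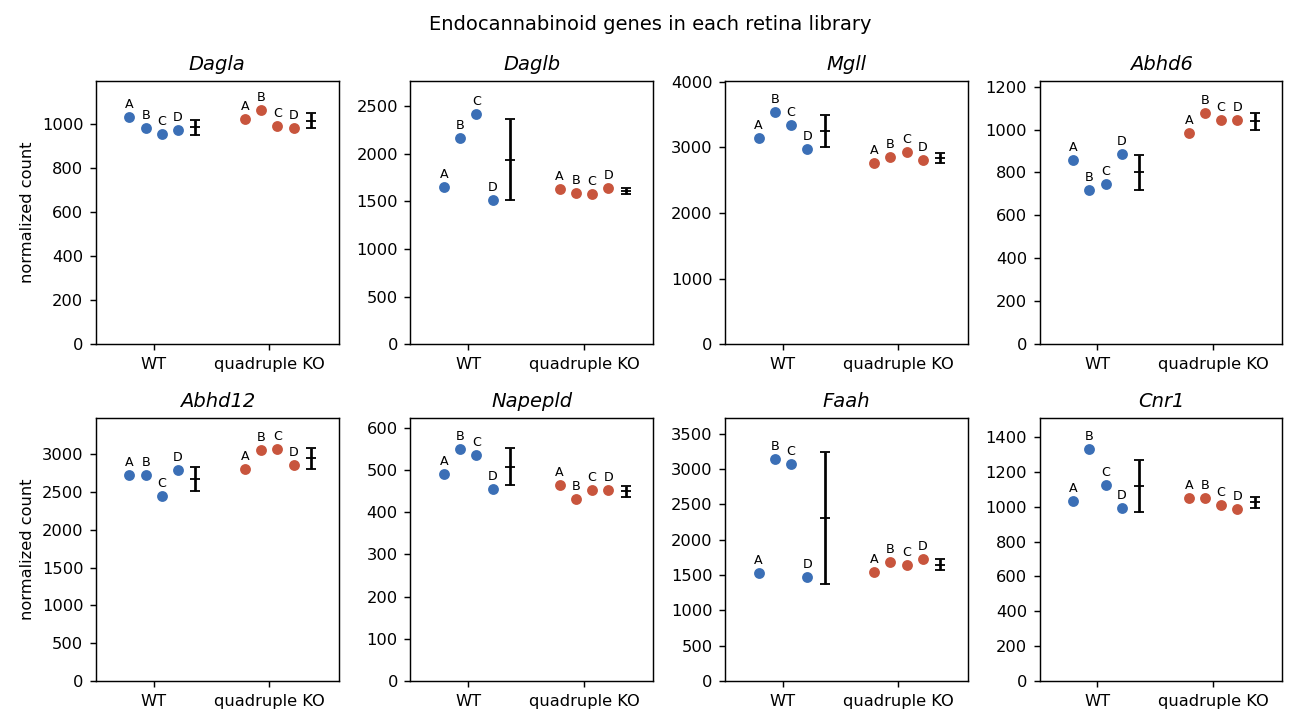
Normalized counts (vertical axes, from 0) of the 8 endocannabinoid genes in the 4 WT libraries (blue) and the 4 quadruple KO libraries (red), each point labelled with its library letter; bars give the mean ± SD of a genotype. Abhd6 and Abhd12 are higher and Mgll is lower in all quadruple KO libraries, and Faah and Daglb are raised in WT B and WT C.

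Among the synthetic enzymes of 2-arachidonoylglycerol, Dagla, which encodes the main form in adult neurons, was the most even gene of the set. Its normalized counts were 1033, 983, 954 and 976 in WT A to D and 1026, 1063, 994 and 984 in KO A to D. The genotypes overlapped, at 987 ± 33.5 for WT against 1017 ± 35.6 for quadruple KO libraries (SD, n = 4 per genotype). On the log2 scale the difference was 0.04 (standard error 0.07, 95% interval -0.11 to 0.20, limma adjusted p = 0.71), and the two-sided exact permutation test on the normalized counts gave p = 0.229. The small difference moved by over 1.5 times when 1 library was left out, to 0.07 without WT A, 0.03 without WT C and 0.02 without KO B, and it was 0.02 when WT was reduced to A and D. Dagla (ENSMUSG00000035735.11) spans 10222629 to 10282320 of chromosome 19 in GRCm39, the build of every gene position given here, on the minus strand.

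Daglb, the second diacylglycerol lipase, varied far more in WT. It had 1649, 2166, 2419 and 1510 normalized counts in WT A to D, and 1631, 1590, 1573 and 1640 in KO A to D. The quadruple KO values fell inside the range of WT A and WT D, and the WT SD of 428 was over 10 times the quadruple KO SD of 32.3. The log2 difference was -0.24 (standard error 0.14, 95% interval -0.56 to 0.08, limma adjusted p = 0.35; exact permutation, two-sided, p = 0.314). When WT was reduced to A and D it was 0.03 (standard error 0.06). Without WT C alone it was -0.13, a change of the estimate by over 1.5 times. Daglb (ENSMUSG00000039206.14, chromosome 5 from 143450236 to 143496130, plus strand) overlaps Rac1 on the opposite strand. The library kit keeps the strand of the RNA, but the sources used here do not say if strand was used in counting, and without it reads of both genes may be mixed. Within each library, the ratio of Dagla to Daglb per length of the canonical transcript was 0.377 in WT B and 0.327 in WT C, and between 0.498 and 0.555 in the other 6 libraries.

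Of the hydrolases, Mgll encodes the enzyme that removes most 2-arachidonoylglycerol in brain. Its normalized counts were 3137, 3539, 3341 and 2972 in WT A to D and 2753, 2853, 2926 and 2809 in KO A to D. The highest quadruple KO library, KO C, lay just below the lowest WT library, WT D. The mean was 3247 ± 246 for WT against 2835 ± 72.9 for quadruple KO libraries (SD, n = 4 per genotype), which is 87.3% of WT. The log2 difference of -0.19 (standard error 0.07, 95% interval -0.35 to -0.03) did not pass over all genes tested (limma adjusted p = 0.30), and the two-sided exact permutation test gave p = 0.0286, the smallest that 4 against 4 libraries allow. Against WT A and WT D alone the log2 difference was -0.11 (standard error 0.05, limma adjusted p = 0.44), over 1.5 times smaller. The quadruple KO libraries necessarily lay below both, since they lay below every WT library. Mgll (ENSMUSG00000033174.18) spans 88652108 to 88805342 of chromosome 6, plus strand.

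Abhd6 encodes a membrane-bound hydrolase of postsynaptic sites that takes a minor share of 2-arachidonoylglycerol hydrolysis in brain and is also known to bind AMPA-type glutamate receptors. It had 857, 717, 747 and 884 normalized counts in WT A to D. In KO A to D the values were 984, 1076, 1046 and 1046. All quadruple KO values exceeded all WT values, and WT B and WT C were the lowest of the 8. The quadruple KO mean of 1038 was 1.30 times the WT mean of 801, a log2 difference of 0.38 (standard error 0.09). When WT was reduced to A and D the difference was 0.25 (standard error 0.06). The 4 quadruple KO libraries necessarily lay above both, since they lay above every WT library. Leaving out any 1 library gave log2 differences between 0.33 and 0.43. Abhd6 (ENSMUSG00000025277.15) spans 14411450 to 14468795 of chromosome 14, minus strand, in GRCm39, whereas the promoter printed above is on the plus strand of the older build.

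Abhd12 encodes a hydrolase that also degrades lysophosphatidylserine and whose loss in humans causes a neurodegenerative disease with retinal dystrophy. It was measured at 2729, 2730, 2444 and 2788 normalized counts in WT A to D and 2803, 3051, 3066 and 2858 in KO A to D. The groups did not overlap, but KO A exceeded WT D by less than 1% of its level, and WT C stood below the other WT libraries. Means were 2673 ± 155 for WT against 2945 ± 134 for quadruple KO libraries (SD, n = 4 per genotype; log2 difference 0.14, standard error 0.07, 95% interval -0.02 to 0.30, limma adjusted p = 0.31; exact permutation, two-sided, p = 0.0286). Against WT A and WT D alone it was over 1.5 times smaller, at 0.09 (standard error 0.05, limma adjusted p = 0.53). Abhd12 (ENSMUSG00000032046.16) spans 150674408 to 150746693 of chromosome 2, minus strand.

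The means of the hydrolase genes thus lay on different sides of WT, above it for Abhd6 and Abhd12 and below it for Mgll. Per transcript length, Abhd6 made up 11.3% to 14.3% of the summed level of Mgll, Abhd6 and Abhd12 in the WT libraries and 15.7% to 16.5% in the quadruple KO libraries. For Mgll the shares were 31.5% to 37.2% in WT and 28.2% to 29.3% in the quadruple KO, and for Abhd12 they were 50.1% to 54.3% and 54.4% to 55.5%. The level of Mgll was 2.21 to 3.24 times that of Abhd6 in WT and 1.74 to 1.84 times in the quadruple KO. These shares contain Abhd6 and are a description without a test. They use the length of the canonical transcript and depend on that choice. Per kb of all annotated exons, the WT means were 525 for Mgll, 197 for Abhd12 and 114 for Abhd6, which puts Mgll instead of Abhd12 highest. Summed rod markers ran from 672956 to 723699 normalized counts in the quadruple KO and from 536721 to 647176 in WT, with the lowest sum in WT B. Summed ganglion cell markers (Rbpms, Pou4f1, Pou4f2, Sncg, Nefl and Slc17a6) ran from 17714 to 20925 normalized counts in the quadruple KO and from 21999 to 24549 in WT. By log2 difference, 3 of the 4 rod markers were higher in the quadruple KO and 1 was lower. Of the 6 ganglion cell markers, 1 was higher and 5 were lower. No gene of either list was called (limma), and the part of these markers in the hydrolase levels was not tested. In whole retina, fewer cells of a type cannot be told apart from less RNA per cell.

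In the anandamide branch, Napepld had 490, 551, 535 and 454 normalized counts in WT A to D and 464, 432, 452 and 452 in KO A to D. The genotypes overlapped through WT D, which lay below KO A. The means were 507 ± 43.8 and 450 ± 13.1 (SD, n = 4 each; log2 difference -0.17, standard error 0.09, 95% interval -0.37 to 0.03, limma adjusted p = 0.32; exact permutation, two-sided, p = 0.0571). With WT A and WT D alone the log2 difference was -0.07 (standard error 0.07). Napepld (ENSMUSG00000044968.17, chromosome 5 from 21867688 to 21923575, minus strand) overlaps Armc10 on the opposite strand.

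Faah was the most variable gene of the set. Its normalized counts were 1532 in WT A, 3144 in WT B, 3071 in WT C and 1467 in WT D, and 1544, 1681, 1644 and 1720 in KO A to D. WT B and WT C were at 1.91 and 1.86 times the quadruple KO mean, while WT A and WT D lay below all 4 quadruple KO libraries. The WT mean of 2303 ± 929 therefore describes no single library, and the quadruple KO mean was 1647 ± 75.3 (SD, n = 4 per genotype). The log2 difference of -0.39 (standard error 0.25, 95% interval -0.96 to 0.18, limma adjusted p = 0.38; exact permutation, two-sided, p = 0.429) changed to -0.21 if WT B was left out and to -0.22 if WT C was, and it turned to 0.13 (standard error 0.06, limma adjusted p = 0.43) with WT A and WT D alone. The summed Müller glia markers (Rlbp1, Glul, Slc1a3 and Aqp4) reached 159969 (WT B) and 154250 (WT C) normalized counts, against 102877 to 120549 in the other 6 libraries. Glul, the most abundant, and Rlbp1 were highest in WT B and WT C, as Faah was, whereas Slc1a3 was lowest in these libraries and Aqp4 was lowest in WT C. The part of these markers in the Faah level was not tested. Faah (ENSMUSG00000034171.14) spans 115824342 to 115875423 of chromosome 4, minus strand.

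The receptor gene Cnr1 had 1030, 1330, 1124 and 990 normalized counts in WT A to D and 1049, 1050, 1010 and 988 in KO A to D. WT B stood highest, followed by WT C, and WT A and WT D lay among or near the quadruple KO values. Means were 1119 ± 152 for WT against 1024 ± 30.5 for quadruple KO libraries (SD, n = 4 per genotype). The log2 difference was -0.12 (standard error 0.10, 95% interval -0.34 to 0.10, limma adjusted p = 0.48; exact permutation, two-sided, p = 0.314), and it was -0.03 without WT B and 0.02 with WT A and WT D alone. Cnr1 (ENSMUSG00000044288.7) spans 33922982 to 33948836 of chromosome 4, plus strand.

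**Figure D2:**
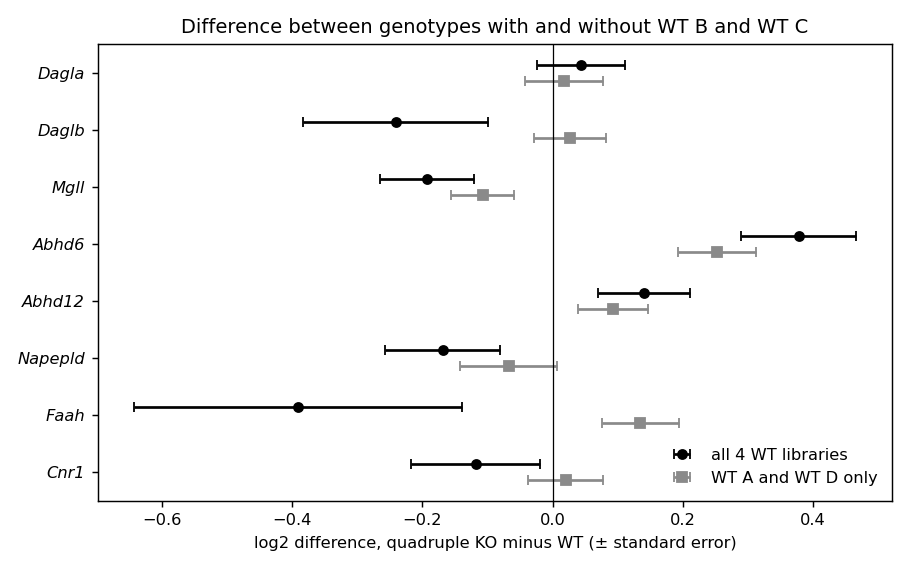
Log2 difference between quadruple KO and WT (horizontal axis, bars ± standard error from limma) for each gene, with all 4 WT libraries (black circles) and with WT A and WT D only (grey squares). Daglb, Faah and Cnr1 pass from below 0 to above 0, whereas the other genes keep their direction. For Abhd6, Abhd12 and Mgll the direction could not change, since their genotypes do not overlap.

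The SD of the normalized counts was larger in WT than in the quadruple KO for 7 of the 8 genes, all except Dagla. In WT the coefficient of variation ran from 3.39% for Dagla to 40.3% for Faah, and in the quadruple KO from 2.01% for Daglb to 4.57% for Faah. The medians over all genes tested had the same order, with an SD of the log2 values of 0.26 in WT and 0.10 in the quadruple KO.

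Levels were compared between genes as normalized counts per kb of the canonical transcript. In WT the order was Abhd12 (1337 ± 77.6), Mgll (883 ± 66.9), Faah (561 ± 226), Daglb (408 ± 90.3), Abhd6 (332 ± 33.8), Cnr1 (174 ± 23.7), Dagla (173 ± 5.86) and Napepld (124 ± 10.7; SD, n = 4 each). Abhd12, Mgll and Napepld did not overlap with their neighbours in this order, nor did Abhd6 with Cnr1. Faah overlapped with Daglb, Daglb with Abhd6, and Cnr1 with Dagla. In the quadruple KO, Abhd6 (430 ± 16.1) took place 3 and overlapped with Faah (401 ± 18.4), and both lay above Daglb (339 ± 6.81). The order depended on the length used. Divided by the length of all annotated exons, Mgll took place 1 and Abhd12 place 3 in WT.

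**Figure D3:**
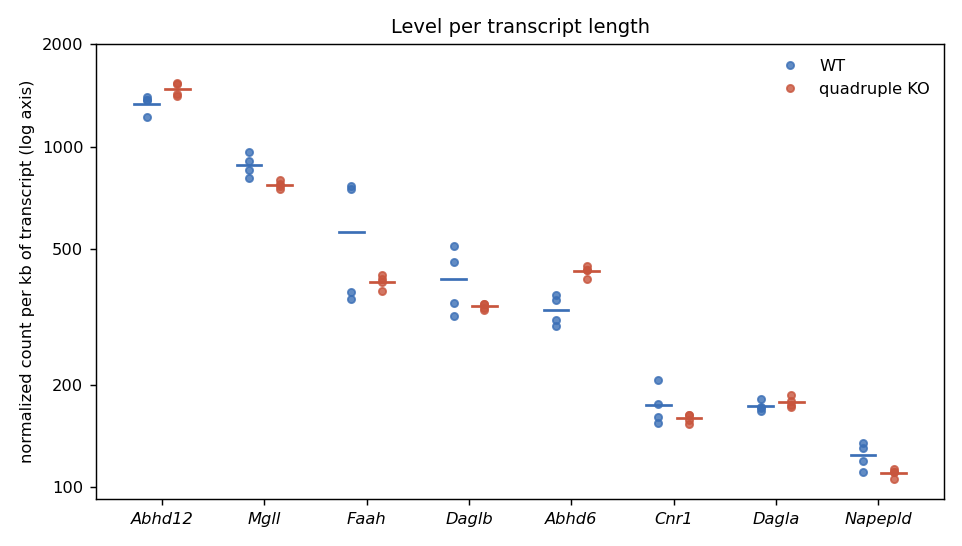
Normalized counts per kb of the canonical transcript (vertical log axis) for each gene in the WT (blue) and quadruple KO (red) libraries, with lines at the means. Abhd12 and Mgll have the highest levels, and Abhd6 takes place 5 in WT and place 3 in the quadruple KO.

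To see how the rest of the pathway stood, 60 further genes in 8 groups were examined, of which 50 passed the filter on low values. Plcb2 was below the filter, and Plaat5, Alox12, Alox15, Cnr2, Gpr55, Gpr18, Gpr119, Trpv1 and Pparg had no row under these names in the expression table. None of the 50 was called over all genes tested (limma, lowest adjusted p = 0.30). An unadjusted p under 0.05 was reached by 8 genes (16%, close to the 16.6% over all genes tested), 2 higher and 6 lower, and in 7 genes the genotypes did not overlap (14%, against 9.74% over all genes). The median log2 difference was -0.03.

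Upstream of the diacylglycerol lipases, Plcb4, a phospholipase C of retinal and cerebellar neurons, had 3425 to 3979 normalized counts in the quadruple KO and 4023 to 5433 in WT (log2 difference -0.35, standard error 0.10, limma adjusted p = 0.30). On other routes to N-acylethanolamines, Gdpd1, a lysophospholipase D, ranged from 1177 to 1255 in the quadruple KO and from 907 to 1172 in WT (log2 difference 0.24, standard error 0.09, limma adjusted p = 0.30). Neither passed the threshold. WT B and WT C were again the highest libraries for Plcb4 and the lowest for Gdpd1. Naaa, the lysosomal amidase that shares the substrates of Faah, was at 992 to 1041 normalized counts in the quadruple KO and 808 to 982 in WT (log2 difference 0.16, standard error 0.08, limma adjusted p = 0.31). Its lowest values were also those of WT B and WT C. Among lipid carriers, Fabp7 had low counts, with 41.1 ± 2.16 in the quadruple KO and 57.4 ± 11.6 in WT (SD, n = 4 each; limma adjusted p = 0.30). Ppara, the only other lipid receptor with a test, was lower still in level, at 10.6 ± 2.68 and 17.4 ± 5.70 (SD, n = 4 each; limma adjusted p = 0.31), and its genotypes overlapped.

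Around the CB1 receptor, Gnai2, an inhibitory G protein subunit, reached 7137 (WT B) and 6924 (WT C) normalized counts, against 3627 to 4736 in the other 6 libraries (log2 difference -0.50, standard error 0.17, limma adjusted p = 0.30). As for Faah, WT B and WT C were the highest libraries. No gene of this group of 8 had genotypes apart. Of the AMPA receptor group, Gria1 was at 1847 to 2053 normalized counts in the quadruple KO and 1619 to 1829 in WT (log2 difference 0.15, standard error 0.07, limma adjusted p = 0.30), and the other 4 genes of the group (Gria2, Gria3, Gria4 and Cacng2) overlapped. Within the ABHD family, 16 further genes were tested and 2 had genotypes apart (12.5%, against 9.74% over all genes tested). Abhd3, a phospholipid hydrolase, was at 507 to 536 normalized counts in the quadruple KO and 599 to 701 in WT (log2 difference -0.32, standard error 0.08, limma adjusted p = 0.30). Abhd17c had a log2 difference of 0.26 (standard error 0.09, limma adjusted p = 0.30). It was named after its values were seen, as was the carrier gene Scp2, whose genotypes were also apart (log2 difference -0.27). WT B and WT C were the highest libraries for Abhd3 and Scp2, and the lowest for Gria1 and Abhd17c. The family median was -0.01.

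**Figure D4:**
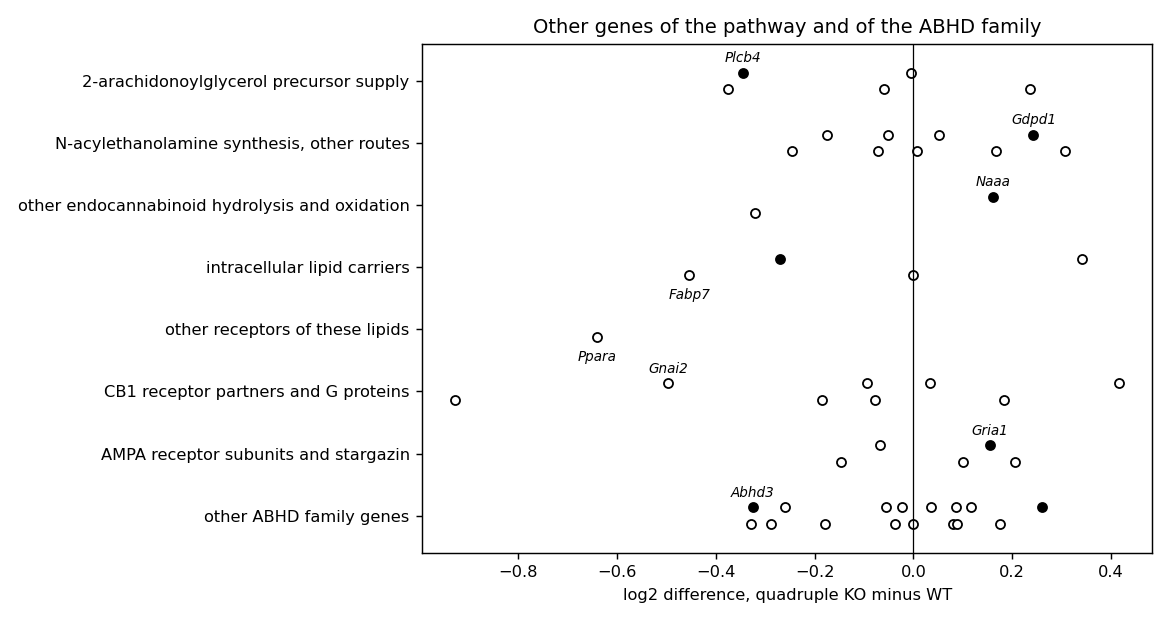
Log2 difference between quadruple KO and WT (horizontal axis) of the 50 tested genes of the wider pathway and the ABHD family, by group; filled points have genotypes that do not overlap, and the gene with the smallest p in each group is named. Points lie on both sides of 0, from -0.93 to 0.42, and none was called over all genes.

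Since the quadruple KO line was made by crossing lines, the surroundings of Abhd6 were examined as well. Of 10 tested genes examined within 1 Mb, none was called (limma), 4 had an unadjusted p under 0.05 (40%, against 16.6% over all genes tested) and 3 had genotypes apart (30%, against 9.74%). The latter, named after their values were seen, were Fam107a and Gm10406, higher in the quadruple KO, and Gm9800, lower. Gm10406 and Gm9800 had low normalized counts, with quadruple KO means of 40.6 and 9.75, and WT B and WT C lay farthest from these means. Gm10406 had 5.41 in WT B and 18.1 in WT C, against 31.0 in WT A and 29.7 in WT D. Gm9800 had 53.2 in WT B and 52.2 in WT C, against 12.2 in WT A and 13.3 in WT D. The log2 difference was above 0 for 7 of the 10 and below 0 for 3, with a median of 0.25. The nearest of them on one side were Rpp14, at a distance of 21.9 kb, with 753 ± 66.2 (WT) and 642 ± 80.7 (quadruple KO) normalized counts, and Pxk, with 978 ± 149 and 1136 ± 32.7 (SD, n = 4 each). On the other side Gm3558, at a distance of 432 kb, was measured at 114 ± 32.1 (WT) and 134 ± 7.59 (quadruple KO; SD, n = 4 per genotype). These 3 genes overlapped between the genotypes, and the log2 differences were -0.23 for Rpp14, 0.23 for Pxk and 0.27 for Gm3558. No tested gene within 1 Mb of any of the other 7 endocannabinoid genes was called (limma). Around Abhd12, 8 of 22 tested genes had an unadjusted p under 0.05 (36.4%) and 4 had genotypes apart (18.2%), all 4 higher in the quadruple KO, as Abhd12 was, and the median log2 difference of the 22 was 0.03. Around the other 6 genes these shares ran from 9.76% to 23.5% and from 5.71% to 12.5%. The effect of DNA around a gene and that of the lost matrix proteins cannot be told apart in this design.

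**Figure D5:**
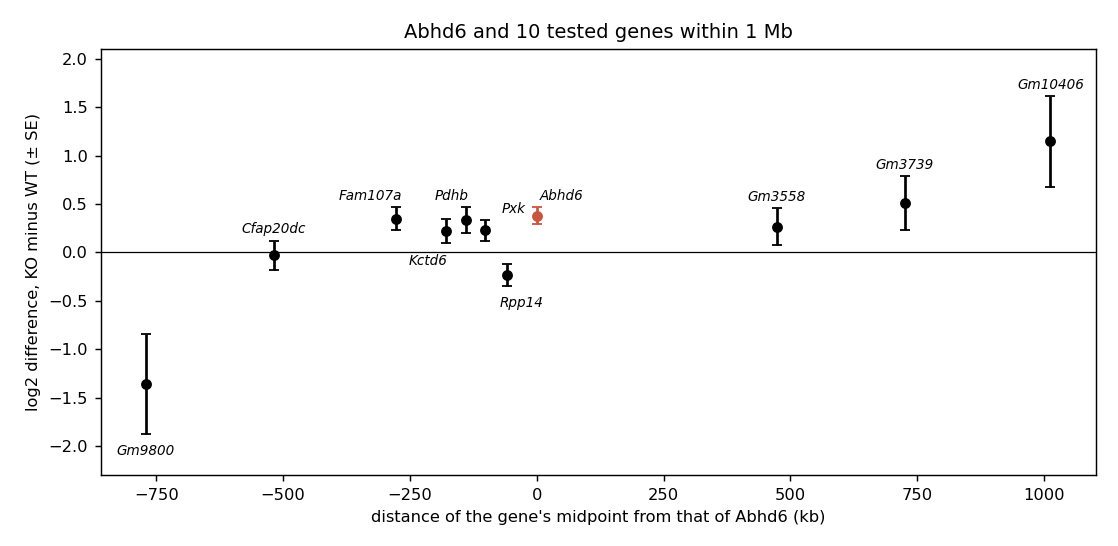
Log2 difference between quadruple KO and WT (vertical axis, bars ± standard error from limma) of Abhd6 (red) and of 10 tested genes within 1 Mb (black), against the distance of their midpoints from that of Abhd6 in kb. Of the neighbours 7 lie above 0, as Abhd6 does, and 3 below, and none was called.

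The genes with the library profile closest to that of Abhd6, measured as the root mean square difference of the centred log2 values over the 8 libraries, were Gm7598 (0.054), Lin54 (0.055), Mmd2 (0.055), Naglu (0.056) and Pan3 (0.057). Their log2 differences between the genotypes ran from 0.29 for Pan3 to 0.35 for Gm7598. This likeness includes the difference that chose Abhd6 and is a description. Of the endocannabinoid genes, Abhd12 was the nearest (0.14) and Faah the farthest (0.60), and 88.9% of all genes tested lay nearer to Abhd6 than Faah did. The median distance over all genes tested was 0.31.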

How the data were processed

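Per the notes of the authors, reads passed through Trim Galore 0.6.7, STAR 2.7.9a on GRCm39, Salmon 1.5.2 and DESeq2 1.32.0. They deposited normalized counts, a score per gene and library, beside a mean, fold changes and p-values of their own comparison, which were not used here. One library was one column, named by genotype and letter. At most 71.7% of the low values of a library lay within 0.1 of a whole multiple of 1 step, so reads were not recovered, the depth is unknown and no count model was fitted. The normalized counts summed to 3.61e+07 to 4.22e+07 per library.

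Genes with a mean of at least 10 were compared as log2(normalized count + 1) with limma 3.58.1 (R 4.3.3; eBayes with a trend, Benjamini-Hochberg over 17636 genes, threshold 0.05), which understates changes of low genes. Exact permutation tests were run with scipy 1.17.1. Positions and transcript lengths came from GENCODE M39 (99.5% of the identifiers matched). The steps were tested on simulated data. The members and lists were chosen with earlier results of these data known. Named were all members, the targeted genes, the gene with the smallest p in each pathway group, the 2 nearest tested genes on each side of Abhd6 and the 5 closest profiles; 1 gene under this rule and 1 marker are not reported here. The alternatives were other normalizations, filters, pseudocounts and variance priors, array weights, a replicate block by letter, WT reduced to A and D, an adjusted p threshold of 0.01, and each library left out.

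Markers of 13 cell types were summed per library. Besides those given above, the sums of cone, rod bipolar, amacrine, horizontal, pigment epithelium, endothelial, microglia, oligodendrocyte, lens and fibroblast markers overlapped between the genotypes, and no marker was called (limma).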

Additional observations from a re-analysis of the deposited data

Results flagged for a closer look

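Abhd12 in WT C, with 2444 normalized counts, stood apart from the other 3 WT libraries, which lay between 2729 and 2788. Its gap to the nearest library took 0.8294 of the WT range, at the limit for 4 values. Of 16 groups of 4 libraries examined (8 genes in both genotypes) this was the 1 that passed, and chance passes about 1 in 20. Without WT C the log2 difference of Abhd12 between quadruple KO and WT was 0.10 instead of 0.14.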

How the results depend on the processing

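None of the 7 tested endocannabinoid genes and none of the 50 tested pathway genes was called under any alternative run (limma). With array weights 143 genes were called over all genes tested instead of 77, and the log2 difference of Faah turned to 0.040. With the letter as a replicate block 51 genes were called. The same-letter correlations of the deviations from the genotype means ran from -0.11 to 0.10, and only C correlated best with its own letter. The labels do not say what the letters mean. These correlations cannot exclude a shared effect of a letter, since the contrast of WT B and WT C with WT A and WT D was a large part of the WT deviations. When WT was reduced to A and D, 93 genes were called, and Daglb (0.027), Faah (0.13) and Cnr1 (0.020) changed sign. Leaving out each library in turn gave 56 to 89 called genes. The other 4 tested members kept their sign under all 19 alternatives, with log2 differences from -0.23 to -0.11 for Mgll, 0.09 to 0.16 for Abhd12, -0.22 to -0.07 for Napepld and 0.01 to 0.07 for Dagla. For Mgll and Abhd12, leaving out libraries could not change the sign, since their genotypes did not overlap. Abhd6 ran from 0.25 to 0.43. No setting moved the median of all genes by more than 0.02. The unequal spread within WT sets the precision, and the cause of the changes of sign beyond the libraries named was not tested.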
